A study of Homo sapiens with 6 samples.

Results

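The genes described here encode the machines that carry proteins into mitochondria: the translocases of the outer membrane (TOM, TOMM genes) and inner membrane (TIM, TIMM genes) and the motor, protease and relay that work with them. Members were taken by symbol. They were all genes whose annotated symbol starts with TIMM or TOMM and a digit, plus SAMM50, the metaxins MTX1, MTX2 and MTX3, PAM16, GRPEL1, GRPEL2, DNAJC15, DNAJC19, PMPCA, PMPCB, CHCHD4 and GFER, without pseudogenes. The rule found 65 of the 54675 probe sets on the array, for 35 of the 19775 genes that had a probe set annotated to them alone. Of these members, 54 probe sets of 33 genes were bright enough to be tested. The arrays measured RNA of IMR32, a human neuroblastoma cell line with an amplified MYCN gene, on 3 arrays from cells given 118 µM teriflunomide and 3 arrays from cells given 0.1% DMSO, each for 24 h, starting 12 h after seeding. Teriflunomide inhibits dihydroorotate dehydrogenase, a pyrimidine synthesis enzyme of the inner mitochondrial membrane. The labels do not say if the drug-treated cells received DMSO too. The labels call the arrays biological replicates but do not say that they came from separate cultures, so p-values measure the spread between these arrays.

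Nearly all mitochondrial proteins are made in the cytosol and imported. Receptors on the TOM complex recognise them and the TOM channel passes them on. Proteins with a cleavable presequence then go through the TIM23 complex and are pulled in by a motor built on mitochondrial Hsp70. Carrier proteins of the inner membrane are escorted by small TIM chaperones to the TIM22 complex, outer membrane barrels go to the sorting and assembly machinery (SAM), and many small proteins of the intermembrane space are trapped by a disulfide relay.

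Values are log2 intensities, so a difference of 1 is a doubling, and fold changes are teriflunomide minus DMSO with the standard error (SE) of the limma fit. The lowest value an array could show was 2.18. The probe sets that stood for the tested genes averaged between 7.76 and 14.89, so none of these sat near it. Further tested probe sets of GRPEL2, GFER and MTX3 were dim, with means of 3.48, 3.55 and 3.82. Across all probe sets (not independent of each other), Pearson's r was at least 0.998 within a group and 0.989 to 0.99 between groups. Of the adrenergic neuroblastoma markers measured, 8 exceeded log2 5 on some array, among them MYCN, PHOX2A and GATA3. TH and STMN2 lay at or next to the floor, and DBH stayed under 5. Of the markers of blood, endothelial, epithelial and fibroblast cells measured, 11 stayed under log2 5, and COL1A1 and PDGFRB exceeded it. The summed linear intensity of these markers above the floor was 3328 to 3615 on teriflunomide arrays and 1760 to 1908 on DMSO arrays, with COL1A1 at 11.75 with teriflunomide and 10.81 in DMSO. The same sum over the adrenergic markers was 57719 to 60963 on teriflunomide arrays and 67240 to 69975 on DMSO arrays. Among them MYCN changed by -0.43 and CHGA by -1.46, while PHOX2A changed by 0.76, GATA3 by 0.35 and ISL1 by 0.22, all past the threshold. The 3′ minus 5′ signal of the ACTB control probe sets, which depends on how complete the labelled RNA was, stood at 1.62 ± 0.07 with teriflunomide and 1.36 ± 0.03 in DMSO (SD, n = 3 each, exact permutation p = 0.1, the smallest possible here). For the GAPDH control probe sets the 3′ minus 5′ signal was 0.063 ± 0.021 with teriflunomide and 0.049 ± 0.006 in DMSO. These groups overlapped (SD, n = 3 each, exact permutation p = 0.4). The part of the marker intensities and of these control signals in the results below was not tested. In bulk RNA, fewer cells and less RNA per cell cannot be told apart.

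With teriflunomide the import genes did not move as a block. Called genes went both ways among the small TIM chaperones, the motor and the presequence protease. In the TOM, TIM22 and TIM23 complexes called genes only fell, and in the disulfide relay they only rose. How often other groups of genes split was not computed. GRPEL1, TIMM10, TIMM13, PMPCA, TOMM40 and TIMM23B fell by 0.54 to 1.20 on the log2 scale. TIMM44 rose by 0.71, and DNAJC19, TIMM9, GFER, TIMM8A, GRPEL2 and CHCHD4 rose by 0.30 to 0.49. Of the 33 genes tested, 12 were lower, 9 were higher and 12 did not pass an adjusted p of 0.05 (limma, Benjamini-Hochberg over 11998 genes). The called members are 63.6% of those tested, against 58.6% of all genes. Lower were 36.4% and higher 27.3%, against 28.9% lower and 29.7% higher among all genes. These shares, here and below, are not matched for brightness: the lowest gene mean was 2.51 over all genes and 7.76 over members. With the filter at the 75th percentile of the array, the same numbers of members were called. Of the 7992 genes then tested, 2826 were lower, and 50.5% of the called genes were higher. Against these brighter genes members were called less often, and called lower about as often. The median log2 fold change was 0.021 over the members and 0.0015 over all genes, and the median size of change regardless of sign was 0.30 and 0.29. Changes past 0.5 were rare upward: 6 members (18.2%) were at least 0.5 lower and 1 (3.03%) at least 0.5 higher, against 14.2% and 15.1% of all genes. For 25 members (75.8%) all arrays of one group lay above all of the other, against 67% of all genes: 13 were higher and 12 lower, against 33.9% and 33.1% of all genes. With the arrays centred on their poly-A spike controls, 5 members were higher and 13 lower, a share of higher calls of 27.8% against 42.9% in the values as deposited, and that share moved to 40.6%, against 50.6%, for all genes.

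**Figure D1:**
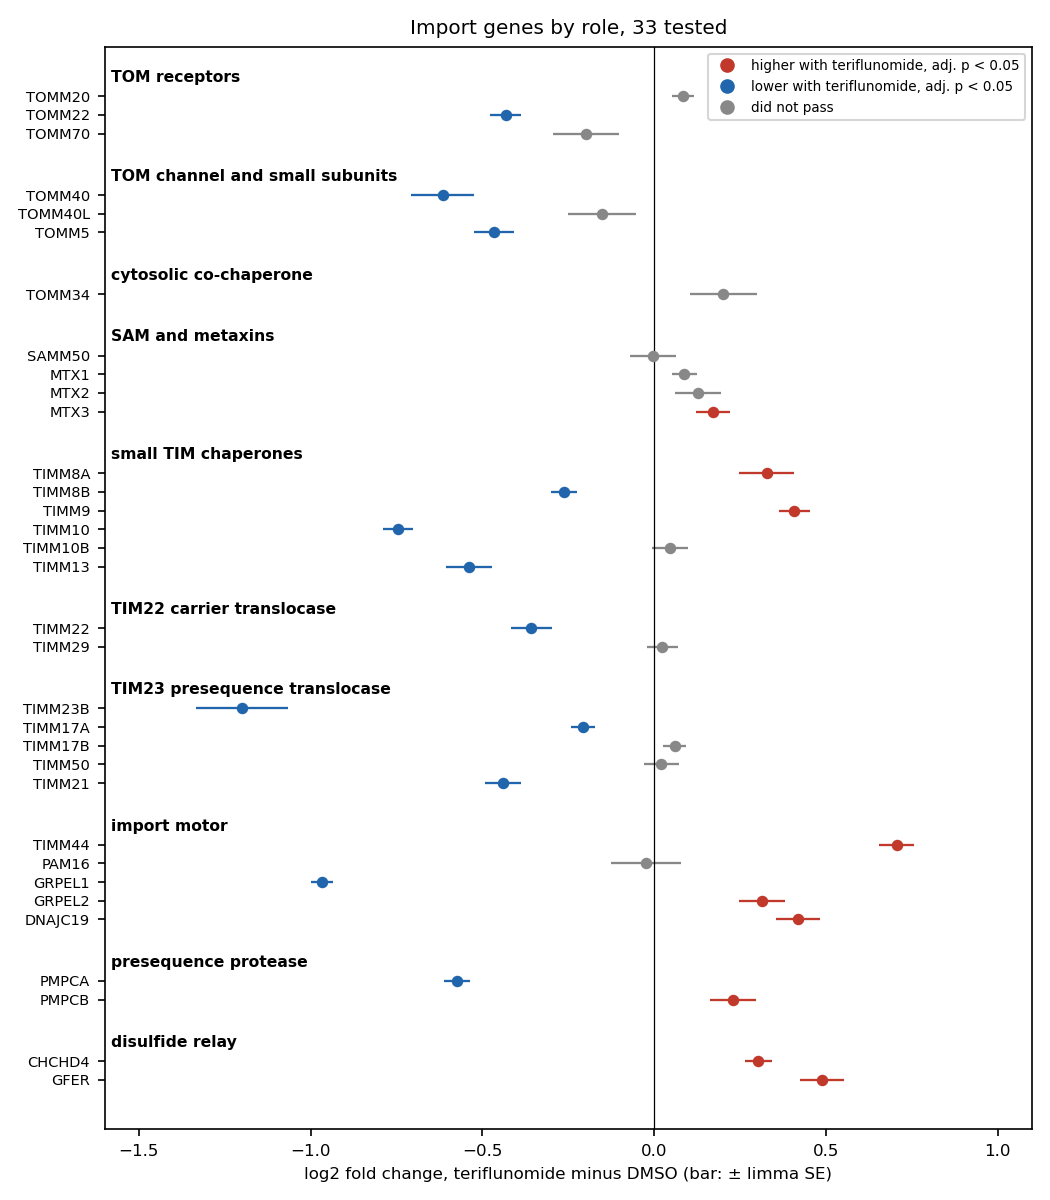
Log2 fold change, teriflunomide minus DMSO, of the 33 tested import genes, grouped by role, with bars for the limma SE. Points right of 0 were higher with teriflunomide. On the probe sets that stood for the genes, the import motor holds both the gene that rose most, TIMM44, and GRPEL1, which fell by 0.97.

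**Figure D2:**
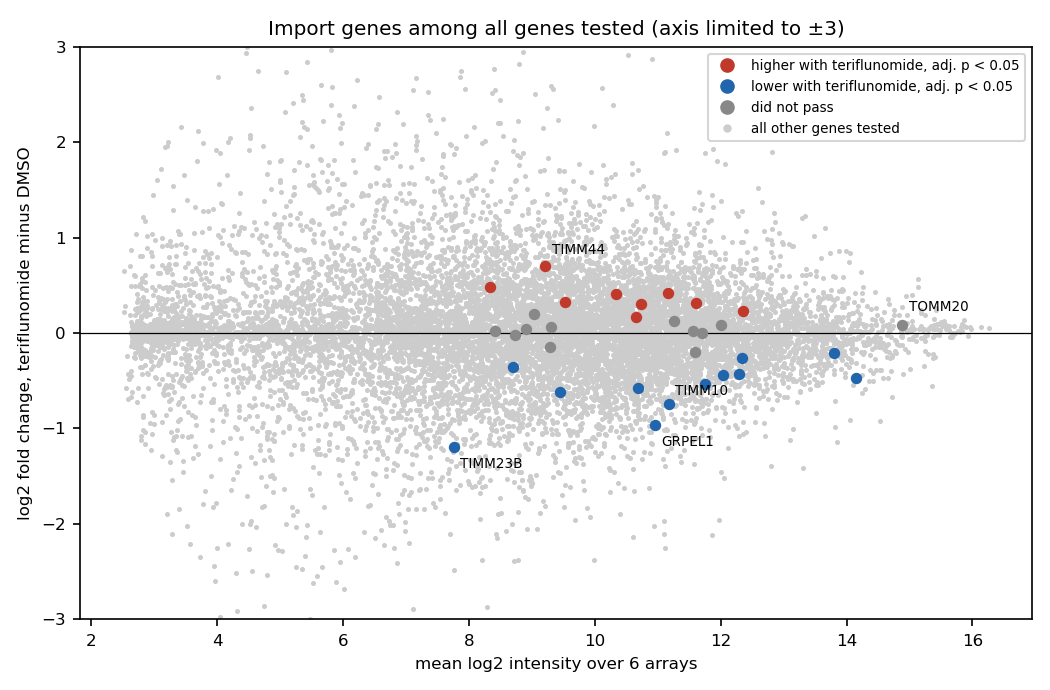
Log2 fold change against mean log2 intensity over the 6 arrays, with import genes in colour over all genes tested in grey. The vertical axis stops at 3 in each direction and leaves out 56 genes. Import genes lie between -1.20 and 0.71 at means of 7.76 to 14.89.

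At the entry of the pathway, 3 of the 6 tested TOM genes fell and none of the 6 rose at an adjusted p under 0.05, against 28.9% lower and 29.7% higher among all genes. TOMM40, the channel itself, read 8.97, 9.15 and 9.28 on the teriflunomide arrays, against 9.79, 9.81 and 9.64 on the DMSO arrays. Every teriflunomide value was below every DMSO value. This is a change of -0.62 (SE 0.09, limma adjusted p = 0.00268), or 1.53-fold lower. TOMM22, the central receptor that organises the complex, had 12.06, 12.04 and 12.11 with teriflunomide and 12.54, 12.43 and 12.54 in DMSO, a change of -0.43 (SE 0.04), and its other probe sets gave -0.41 and -0.74. TOMM5, a small subunit beside the channel, changed by -0.47 and by -0.46 on its other probe set. The remaining receptors moved less. TOMM20, the main presequence receptor and the brightest member, had 14.93, 14.94 and 14.92 with teriflunomide, against 14.85, 14.80 and 14.88 in DMSO. Its 0.08 (95% interval 0.004 to 0.17) did not pass at an adjusted p of 0.0685, though it did with the mean of its probe sets (0.12), when eBayes was trended and robust and when dim values were lifted to log2 5. TOMM70, the receptor for carrier precursors, stood at -0.20 (-0.44 to 0.04) on the probe set used and at -0.33, past the threshold, on a dimmer one. It also passed with the replicate number as a block (-0.20), with arrays centred on poly-A spikes (-0.28) and with the mean of its probe sets (-0.26). TOMM40L, a paralog of the channel, stood at -0.15 (-0.40 to 0.10). The within-array difference of TOMM40 and TOMM40L changed by -0.46, with groups that did not overlap (exact permutation p = 0.1, which is the minimum for 3 against 3; Benjamini-Hochberg p = 0.133 over 8 pairs). TOMM34, a cytosolic co-chaperone of precursors in spite of its name, stood at 0.20 (-0.04 to 0.45).

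The sorting and assembly machinery stayed close to its DMSO level. SAMM50, its barrel, had 11.84, 11.62 and 11.65 with teriflunomide and 11.65, 11.72 and 11.74 in DMSO, a difference of -0.003 with a 95% interval of -0.17 to 0.17. Its other tested probe set gave 0.01. The metaxins, which cap that barrel on the cytosolic side, stood at 0.09 for MTX1 and 0.13 for MTX2, neither past the threshold, and at 0.17 for MTX3, which passed at an adjusted p of 0.0286. That MTX3 call was lost in 7 of the 17 alternative settings, including when DMSO array 2 (0.15), DMSO array 3 (0.16), teriflunomide array 1 (0.18) or teriflunomide array 3 (0.14) was left out. MTX1 passed at 0.11 when teriflunomide array 1 was left out.

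The small TIM chaperones shield membrane proteins in the intermembrane space, TIMM9 together with TIMM10 and TIMM8A together with TIMM13. In each of these complexes the partners moved apart. TIMM9 had 10.50, 10.60 and 10.52 with teriflunomide and 10.09, 10.12 and 10.19 in DMSO, while TIMM10 had 10.74, 10.86 and 10.82 with teriflunomide and 11.51, 11.56 and 11.58 in DMSO. TIMM9 was thus higher on every teriflunomide array (0.41, SE 0.05, adjusted p = 0.000846) and TIMM10 lower on each (-0.75, SE 0.04, adjusted p = 0.000101). The other TIMM10 probe set changed by -0.97. TIMM13 had 11.42, 11.53 and 11.49 with teriflunomide, against 12.09, 11.89 and 12.08 in DMSO, and fell by 0.54 (SE 0.07, adjusted p = 0.00133). TIMM8A, the gene mutated in deafness-dystonia syndrome, had 9.55, 9.78 and 9.72 with teriflunomide and 9.26, 9.46 and 9.35 in DMSO. It rose by 0.33 (SE 0.08, adjusted p = 0.0161), a call lost by a narrow margin when DMSO array 3 (0.33), teriflunomide array 2 (0.28) or teriflunomide array 3 (0.31) was left out. TIMM10B, which sits with the carrier translocase, stood at 0.05 (-0.09 to 0.18) on its brighter probe set, and its dimmer one, with a mean of 6.69, fell by 0.38. With the mean of its probe sets TIMM10B passed as lower, at -0.17.

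TIMM8B is the member whose direction was not settled by the array. Its brighter probe set had 12.20, 12.19 and 12.24 with teriflunomide and 12.43, 12.47 and 12.52 in DMSO, a change of -0.26 (SE 0.04). Its other probe set had 9.90, 9.91 and 10.05 with teriflunomide, against 8.48, 8.49 and 8.29 in DMSO, a change of 1.54 (SE 0.07), the largest of any member probe set. Neither overlapped between groups, and both passed (adjusted p = 0.00282 and 9.11e-05 over 22735 probe sets). What each probe set detects was not examined. Among the 18 members with more than 1 tested probe set, TIMM8B was the 1 called in opposite directions (5.56%), against 8.57% of the 6081 such genes on the array. All probe sets were lower for 7 of the 18 and higher for 1, TIMM44. The matching shares of the 6081 genes were not computed, so these counts have no background to be read against. Over the 54 tested member probe sets, 25 (46.3%) were lower and 11 (20.4%) higher, against 26.8% and 25.5% of all probe sets tested. Probe sets of the same gene are not independent, and TOMM22, TIMM22 and TIMM17A each gave 3 of the lower ones. Counted by gene, 36.4% of members were lower and 27.3% higher.

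**Figure D3:**
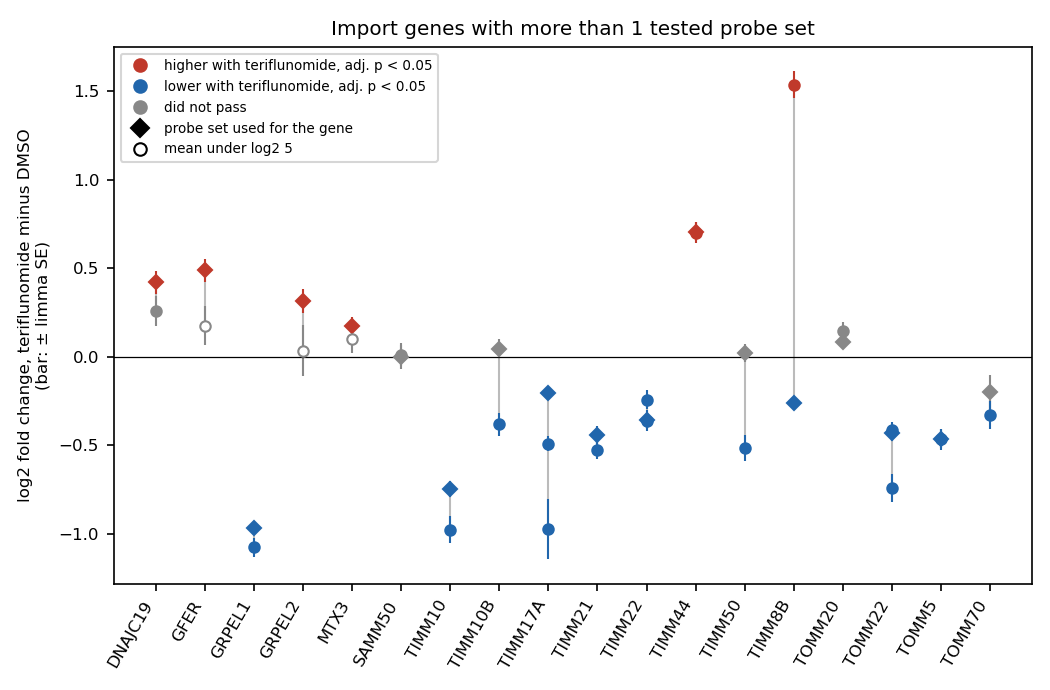
Log2 fold change, teriflunomide minus DMSO, of each tested probe set (bars, limma SE) for the 18 import genes with more than 1. Diamonds mark the probe set that stood for the gene, and open symbols a mean under log2 5. TIMM8B spans -0.26 to 1.54, while GRPEL1, TIMM44 and TOMM5 have probe sets close together.

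Promoters are shown for TIMM10 and TIMM8A, small TIM genes that moved in opposite directions and both hold the same motif. RefSeq promoters, 250 bases before to 50 after the start on GRCh38.p14, were found for 32 of the 35 members and not for GRPEL1, TIMM8B and TOMM5. CACGTG, the E-box bound by MYC-family proteins and other factors, occurred in 4 of the 32 (12.5%), TIMM10, TIMM8A, MTX3 and TOMM20, and in 7.26% of the 35116 promoters of the table, which includes genes that make no protein. TIMM10 fell, TIMM8A and MTX3 rose and TOMM20 did not pass. The TIMM10 promoter (chr11:57530705-57531004, minus strand) holds it across the start and the TIMM8A promoter (chrX:101348693-101348992, minus strand) after the start. They are written 5′ to 3′ with CACGTG in capitals.
TIMM10: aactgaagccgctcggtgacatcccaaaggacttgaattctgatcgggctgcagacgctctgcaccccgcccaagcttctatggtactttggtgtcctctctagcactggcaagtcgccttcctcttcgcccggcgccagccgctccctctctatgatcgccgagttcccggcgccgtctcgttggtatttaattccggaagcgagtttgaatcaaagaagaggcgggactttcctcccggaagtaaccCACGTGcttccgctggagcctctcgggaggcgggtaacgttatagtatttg
TIMM8A: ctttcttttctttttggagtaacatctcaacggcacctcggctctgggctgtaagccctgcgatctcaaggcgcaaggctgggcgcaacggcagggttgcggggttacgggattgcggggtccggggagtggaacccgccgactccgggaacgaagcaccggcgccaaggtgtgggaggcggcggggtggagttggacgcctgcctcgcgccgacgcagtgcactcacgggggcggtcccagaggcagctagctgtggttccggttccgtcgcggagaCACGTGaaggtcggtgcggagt

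On either strand, TGATGNAA, the core of the composite element bound by ATF4 and C/EBP factors, was found in 2 of the 32 promoters (6.25%), those of TIMM22 and PMPCB, against 3.62% of all. The palindrome bound by NRF1, a regulator of respiratory genes, was found in 1 (3.12%), that of CHCHD4, against 1.24% of all. CACGTG and the NRF1 palindrome read the same on both strands. Of the members that changed by at least 0.5, only TIMM10 held any of these motifs among TIMM10, TIMM13, TIMM23B, TIMM44, PMPCA and TOMM40, whose promoters were in the table. A match is a description of the letters and not a binding site.

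In the carrier translocase, TIMM22, its channel, fell by 0.36 (SE 0.06, adjusted p = 0.00382). It had 8.57, 8.59 and 8.42 with teriflunomide and 8.85, 8.85 and 8.95 in DMSO, and its other probe sets changed by -0.24 and -0.36. TIMM29, a subunit found in animals and absent from yeast, stood at 0.02 (-0.09 to 0.14).

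In the TIM23 complex, 3 of the 5 tested genes fell, against 28.9% of all genes, and the other two, TIMM17B and TIMM50, did not pass. TIMM23B gave the largest fall of any member probe set tested. It read 6.90, 7.17 and 7.42 with teriflunomide and 8.43, 8.36 and 8.30 in DMSO, clear of each other, a change of -1.20 (SE 0.13, adjusted p = 0.000847) or 2.30-fold lower. It was also the dimmest tested member, and near-identical to TIMM23, the channel-forming subunit, so which of the genes its probe set detects is uncertain. The probe set annotated to TIMM23 alone lay at the floor, between 2.18 and 2.27 on all arrays, and was not tested. A further 3 probe sets, annotated to TIMM23B and TIMM23 together, stood outside the gene comparison and were lower by the same test over 27290 probe sets of any annotation, of which 48.8% passed in either direction. The promoters of the pair show how alike these loci are. Set off by 6 bases, 289 of 294 compared bases were identical (98.3%), and the 5 that differ are in capitals below (TIMM23, chr10:45972239-45972538, and TIMM23B, chr10:49941803-49942102, both plus strand, GRCh38.p14).
TIMM23: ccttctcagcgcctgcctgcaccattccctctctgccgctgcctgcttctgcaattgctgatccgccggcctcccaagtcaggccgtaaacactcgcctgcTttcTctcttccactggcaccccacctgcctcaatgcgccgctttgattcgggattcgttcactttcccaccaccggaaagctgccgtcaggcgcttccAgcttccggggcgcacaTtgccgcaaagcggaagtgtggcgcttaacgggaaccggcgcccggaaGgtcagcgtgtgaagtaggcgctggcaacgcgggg
TIMM23B: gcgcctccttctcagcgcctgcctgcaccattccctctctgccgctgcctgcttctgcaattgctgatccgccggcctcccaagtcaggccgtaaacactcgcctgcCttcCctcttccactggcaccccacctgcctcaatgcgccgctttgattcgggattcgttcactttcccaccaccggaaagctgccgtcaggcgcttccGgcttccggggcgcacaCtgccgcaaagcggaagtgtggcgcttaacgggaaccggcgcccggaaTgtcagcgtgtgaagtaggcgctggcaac

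TIMM17A, which pairs with TIMM23 in the channel, fell on each of its 3 tested probe sets, by amounts that differed more than their errors. The brightest had 13.72, 13.68 and 13.69 with teriflunomide and 13.91, 13.94 and 13.86 in DMSO, a change of -0.21 (SE 0.03, adjusted p = 0.00416). The next, with a mean of 12.74, changed by -0.49 and the dimmest, with a mean of 7.08, by -0.97. TIMM17B, the alternative partner encoded on the X chromosome, stood at 0.06 (-0.03 to 0.15). On the probe sets used, the within-array difference of TIMM17A and TIMM17B changed by -0.27 (exact permutation p = 0.1, Benjamini-Hochberg p = 0.133), and with the means of their probe sets by -0.62. TIMM21, which links the complex to the respiratory chain, had 11.75, 11.87 and 11.85 with teriflunomide and 12.30, 12.30 and 12.19 in DMSO, and fell by 0.44 (SE 0.05), with -0.52 on its other probe set. TIMM50, the presequence receptor of the complex, had 11.48, 11.62 and 11.62 with teriflunomide, against 11.59, 11.55 and 11.51 in DMSO. Its groups overlapped, at 0.02 (-0.10 to 0.15). A second TIMM50 probe set with a mean of 7.57 fell by 0.51, so TIMM50 was called lower with the mean of its probe sets (-0.25) or with a plain-suffix probe set preferred (-0.51).

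On the probe sets that stood for the genes, the motor that pulls precursors through the channel spanned the widest range of any role group, -0.97 to 0.71. GRPEL1, the nucleotide exchange factor that resets mitochondrial Hsp70, read 10.51, 10.47 and 10.44 with teriflunomide and 11.43, 11.44 and 11.45 in DMSO. The groups lay far apart relative to their spread, and the fall of 0.97 (SE 0.03), or 1.95-fold, had the smallest adjusted p of any member, 2.75e-05. The other GRPEL1 probe set changed by -1.07. GRPEL2, its paralog, went the other way, with 11.82, 11.70 and 11.77 with teriflunomide against 11.54, 11.32 and 11.49 in DMSO, a rise of 0.31 (SE 0.07, adjusted p = 0.0104). Its other probe set was dim, with a mean of 3.48, and stood at 0.03. The GRPEL2 call was lost with the mean of its probe sets (0.17) and with arrays centred on poly-A spikes (0.23). Within each array the GRPEL1 minus GRPEL2 difference was -1.33 to -1.23 with teriflunomide and -0.11 to 0.12 in DMSO, a change of -1.28 (exact permutation p = 0.1, Benjamini-Hochberg p = 0.133).

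TIMM44, which tethers Hsp70 to the exit of the channel, rose most of the members on the probe sets that stood for the genes, while a dimmer TIMM8B probe set rose more. It had 9.49, 9.65 and 9.56 with teriflunomide and 8.87, 8.82 and 8.90 in DMSO, with no overlap, a rise of 0.71 (SE 0.05, adjusted p = 0.000204) or 1.63-fold, and 0.70 on its other probe set. DNAJC19, the J-domain protein that stimulates Hsp70, had 11.23, 11.42 and 11.45 with teriflunomide and 10.94, 10.95 and 10.95 in DMSO. It rose by 0.42 (SE 0.06, adjusted p = 0.00283), and by 0.26, just short of the threshold, on its dimmer probe set. PAM16, the J-like partner that restrains it, overlapped between groups at -0.02 (-0.28 to 0.24). DNAJC15, a paralog of DNAJC19, was not tested: its brightest probe set had 2.33 on each teriflunomide array and 3.80, 2.33 and 2.90 in DMSO, and its others lay at the floor. DNAJC15 and TIMM23 were the 2 members below the filter, while TIMM23B and GFER, with means of 7.76 and 8.33, were the nearest above it.

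**Figure D4:**
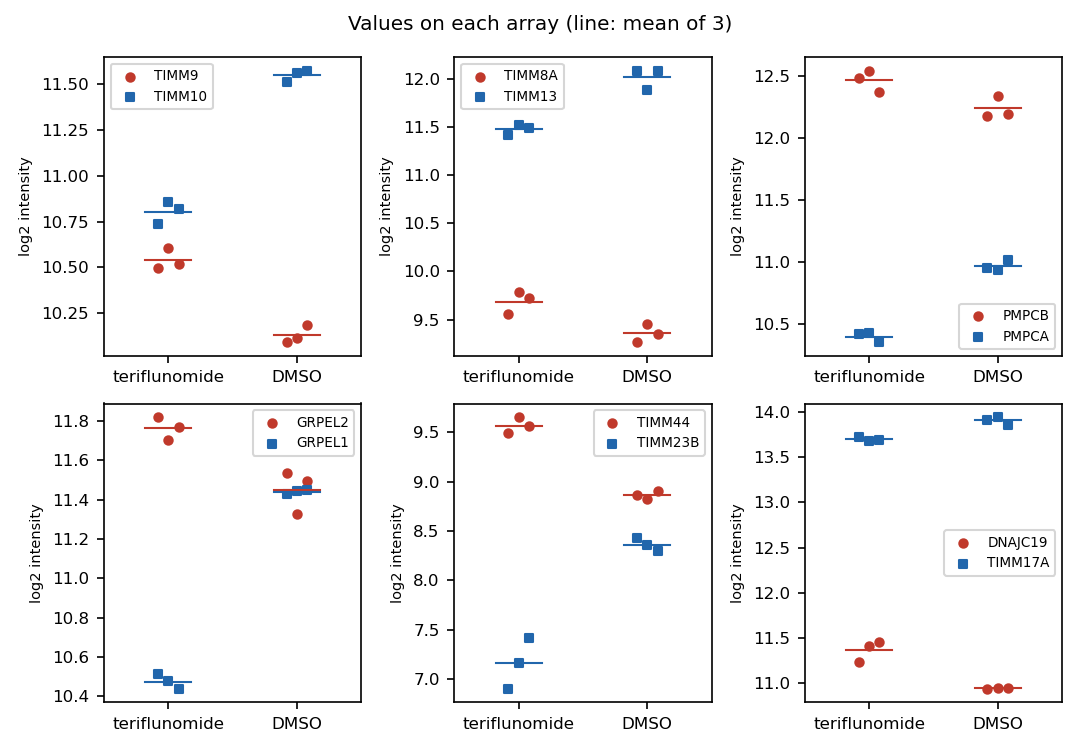
Log2 intensity on each array, teriflunomide left and DMSO right, with lines at group means. Each panel was chosen to hold a gene that rose with teriflunomide, red circles, and one that fell, blue squares. The opposition within a panel is thus set by the choice, and pairs that did not move apart, such as MTX1 and MTX2, are not drawn. Levels of different probe sets are not comparable with each other, and what can be read is the direction within a gene, such as TIMM9 up and TIMM10 down.

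The presequence protease of the matrix showed the same split between its subunits. PMPCA, the substrate-binding alpha subunit, had 10.42, 10.42 and 10.35 with teriflunomide and 10.96, 10.94 and 11.02 in DMSO, a fall of 0.57 (SE 0.04, adjusted p = 0.000159). PMPCB, the catalytic beta subunit, had 12.49, 12.55 and 12.38 with teriflunomide and 12.18, 12.34 and 12.20 in DMSO, a rise of 0.23 (SE 0.07, adjusted p = 0.0294). PMPCA was lower and PMPCB higher on every teriflunomide array, and their within-array difference changed by -0.80 (exact permutation p = 0.1, Benjamini-Hochberg p = 0.133). The PMPCB call was lost in 6 of 17 settings, including without DMSO array 1 (0.20), DMSO array 3 (0.21), teriflunomide array 1 (0.22) or teriflunomide array 2 (0.19).

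Both genes of the disulfide relay rose, where 29.7% of all genes were called higher. CHCHD4, the oxidoreductase that folds and traps small proteins of the intermembrane space, had 10.89, 10.91 and 10.88 with teriflunomide, against 10.52, 10.63 and 10.61 in DMSO. GFER, the sulfhydryl oxidase that recharges CHCHD4, had 8.49, 8.57 and 8.68 with teriflunomide, against 8.04, 8.06 and 8.17 in DMSO. Neither overlapped between groups. The changes were 0.30 (SE 0.04, adjusted p = 0.00139) for CHCHD4 and 0.49 (SE 0.06, adjusted p = 0.00155) for GFER. The CHCHD4 call was narrowly lost with arrays centred on poly-A spikes (0.22), and the GFER call with a plain-suffix probe set preferred, a dim one at 0.18.

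Of 8 paralog or subunit pairs with both genes tested, 6 had within-array differences that did not overlap between groups and an exact permutation p of 0.1. The share of other gene pairs that do so was not computed. Taken singly, 67% of all genes did not overlap between groups. The difference of TIMM10 and TIMM10B changed by -0.79. That of TIMM8A and TIMM8B changed by 0.59 on the probe sets used and by -0.31 with the means of their probe sets. The metaxin pairs overlapped, at -0.04 for MTX1 against MTX2 and -0.04 for MTX2 against MTX3 (exact permutation p = 0.7 each). No pair could pass by this exact test, whose smallest p is above the threshold with 3 against 3 arrays. No model was fitted to the differences. The 12 members that did not pass had 95% intervals within -0.44 and 0.45 on the probe set that stood for each gene. That bound does not cover their dimmer probe sets, since those of TIMM50, TOMM70 and TIMM10B fell by 0.51, 0.33 and 0.38.

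Of 22 genes that act beside the translocases (mitochondrial Hsp70 and its escort, peptidases, insertases, and the cristae organising system MICOS), all were tested, 9 fell (40.9%, against 28.9% of all genes), 5 rose (22.7%, against 29.7%) and 8 did not pass. The median was -0.078. Among these calls, the rise of IMMT (0.18) was lost in 9 of 17 settings and the fall of DNLZ (-0.40) in 7 of 16. IMMP1L, a peptidase that clips proteins sorted to the intermembrane space, averaged 9.57 ± 0.07 with teriflunomide and 11.03 ± 0.08 in DMSO (SD, n = 3 each), a change of -1.46 (SE 0.06, limma adjusted p = 4.15e-05). Its other probe set stood at -0.18 and did not pass, so the call was lost where a plain-suffix probe set was preferred. XPNPEP3, whose yeast counterpart trims proteins after the presequence protease, averaged 8.84 ± 0.06 with teriflunomide and 10.25 ± 0.10 in DMSO, a change of -1.41. Another XPNPEP3 probe set, dim in DMSO at 4.29, stood at 6.14 with teriflunomide and rose by 1.86, so the call was lost with the mean of its probe sets (-0.08). DNAJC11, a J-domain protein bound to MICOS and SAM, changed by -0.98 and by -0.91 on its other probe set. COX18, an insertase for a cytochrome oxidase subunit, changed by -0.84 and MICOS10, a core MICOS subunit, by -0.60. OXA1L, the general insertase of the inner membrane, rose by 0.69 (SE 0.05), the largest rise of the list. HSPA9, the Hsp70 of the motor, was chosen after its values were seen. It averaged 14.17 ± 0.03 with teriflunomide and 13.70 ± 0.06 in DMSO and rose by 0.47 (SE 0.04, limma adjusted p = 0.000451), with 0.40 and 0.32 on its other tested probe sets.

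**Figure D5:**
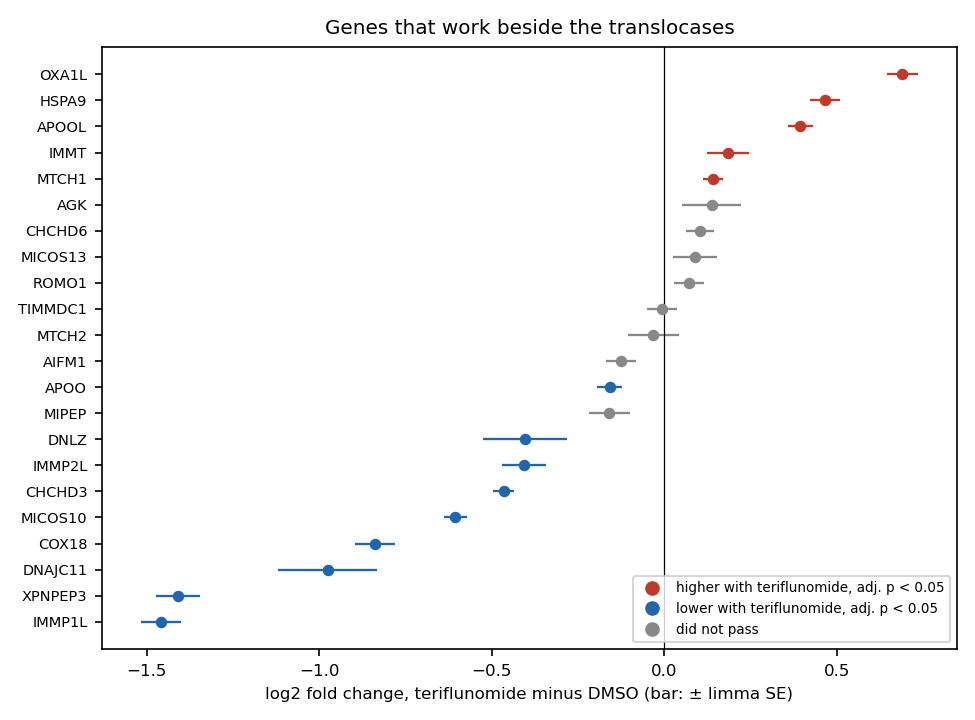
Log2 fold change, teriflunomide minus DMSO, of 22 genes that act beside the translocases, ordered by size, with bars for the limma SE. OXA1L, at 0.69, and IMMP1L, at -1.46, mark the ends.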

How the data were processed

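The authors deposited log2 intensities, 1 per probe set and array, and the submitters' processing notes name GCRMA. That method models background from probe sequence, gives arrays a common distribution and summarises probes, so a change shared by every gene is removed. Its version is not given in the sources used here. Genes were named from the platform annotation where a probe set had 1 symbol (41091 probe sets, 41037 of them found in the RefSeq gene table of GRCh38.p14), while 1801 had several and 11777 none. Probe sets that reached the median of the array on 3 or more of the 6 arrays were tested, and the probe set with the highest mean stood for its gene. Groups were compared with limma 3.58.1 (R 4.3.3; lmFit, eBayes, two-sided, no covariates), with Benjamini-Hochberg adjustment over 11998 genes or, for probe sets, over 22735. Within-array differences of paralogs and control signals were compared by two-sided exact permutation. Python 3.11.15 drew figures and searched promoters.

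Simulated data over 11998 genes, with 100 genes given a log2 change of 0.5 and 100 a change of 1, gave calls for 62% and 94% of them. In the data 58.6% of genes were called. The adjusted p depends on how many genes change, so these shares do not carry over to the data. The number of arrays limits precision. The members, lists, pairs and motifs were chosen with earlier results of these data known. Members past the threshold by at least 0.5, or with probe sets called in opposite directions, were described in full, and partner genes were named by the same size. Alternatives covered the filter, scaling, choice of probe set, low values, eBayes options, weights for arrays, a replicate block and leaving out each array.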

Additional observations from a re-analysis of the deposited data

Results flagged for a closer look

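A total of 6 probe sets annotated with the symbol of an import gene and of another gene were outside the comparisons, since they name no gene alone. All 6 passed the threshold in a limma fit over 27290 probe sets of any annotation, of which 48.8% passed. The 3 annotated to TIMM23B and TIMM23 together changed by -0.91, -0.87 and -0.68 with teriflunomide, next to -1.20 for the TIMM23B probe set. The 2 annotated to TOMM6 and PRICKLE4 changed by -0.46 and -0.34, and the 1 annotated to C4orf46 and TOMM7 by 0.19. The genes behind these signals cannot be told apart here. Groups of 3 arrays were too small to test for a stray array.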

How the results depend on the processing

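Over 17 alternative settings, 14 of the 21 called import genes kept direction and call in every setting, GRPEL1, TIMM10, TIMM13, TIMM44, PMPCA, TOMM40 and TIMM23B among them, as did 7 of the 12 that did not pass. The number of lower import genes was 12 to 14, and that of all genes lower was 2826 to 3769, where the filter also changed how many genes were tested. With arrays centred on poly-A spikes, 5 import genes, 3 partner genes and 2579 of all genes were higher. The median over import genes was then -0.064, and that over all genes was -0.084. The cause was not tested. Leaving out 1 array gave 6 to 8 import genes higher, 12 lower, 4 to 5 partner genes higher and 8 to 10 lower, 3158 to 3312 of all genes higher and 3059 to 3270 lower. The import median then ranged from -0.00085 (without teriflunomide array 3) to 0.052 (without teriflunomide array 1). TIMM8B reversed to 0.64 with the mean of its probe sets and to 1.54 with a plain-suffix probe set preferred, and the TIMM8A against TIMM8B difference to -0.31, through the probe set that moved the other way. As a replicate block, the replicate number gave 9 import genes higher and 13 lower and 4 partner genes higher and 8 lower. Of all genes, 3359 were then higher and 3282 lower. Same-numbered arrays correlated at 0.04, 0.10 and -0.09 in their deviations from group means, and not every array correlated best with its own number. With 3 arrays per group these values cannot decide whether the numbers paired the arrays.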
